A study of Homo sapiens with 36 samples.

Results

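The genes described here are 34 genes of glycolysis and of glucose and lactate transport, chosen by name from the 66366 named genes that the 36 RNA sequencing libraries list. They profile H3255, H1975, H820 and A549, which are 4 established human lines of non-small cell lung cancer, under 3 treatments with 3 libraries each. Within a line, genes were tested where their mean reached 1 FPKM (fragments per kilobase of gene, scaled to each library's depth). That kept 32 members in H3255 (HKDC1 and SLC16A1 were below), all 34 in H1975, 33 in H820 (SLC2A3 was below) and 33 in A549 (HK2 was below).

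Per the labels, H3255 carries EGFR L858R, H1975 carries EGFR L858R with T790M, H820 carries EGFR Ex19del with T790M, and the EGFR of A549 is wild type. Cells of every group were held in 1% serum and treated for 24 h with 3 µM of MinE07, an RNA aptamer (a short RNA whose fold binds a target) directed at EGFR, with 3 µM of a lengthened form of the control aptamer C36, or with the vehicle, DPBS with magnesium. All media were supplemented with pyruvate and glutamine. A549 was grown in DMEM and the other lines in RPMI, so medium and line cannot be told apart for A549, and each genotype is represented by single lines. The series record calls the 3 experiments biologically independent.

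Relative depth, read from the smallest steps between low FPKM values, ran from 0.590 to 1.39 of the median library, and summed FPKM ran from 362928 to 449811. The lowest sums belonged to H820 MinE07 replicates 1 and 2. The epithelial genes EPCAM, KRT8, KRT18, KRT7 and CDH1 were present in every line, and the lowest was EPCAM in A549 (4.85 to 6.71 FPKM over 9 libraries). NKX2-1, a transcription factor of lung epithelium, reached at most 0.0471 FPKM in A549. The alveolar genes NAPSA and SFTPB were above 1 FPKM in H3255 alone. Of the genes of cells that should be absent, PTPRC and PECAM1 stayed under 1 FPKM in all libraries, COL3A1 did too, and COL1A1 reached 6.46 FPKM in H1975.

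Glycolysis splits glucose into pyruvate in the cytosol, with GLUT transporters bringing glucose in, hexokinases trapping it as glucose 6-phosphate and phosphofructokinase committing it to breakdown. Lactate dehydrogenase converts pyruvate to lactate, which monocarboxylate transporters carry across the membrane, while the pyruvate dehydrogenase complex, held in check by its kinases, sends pyruvate into mitochondria. In lung cancers driven by mutant EGFR, signalling from the receptor is known to support glucose uptake and glycolytic gene expression. Several of the genes are also known targets of the transcription factors HIF1A and MYC.

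In vehicle, the widest differences between the 4 lines were in transcripts of the entry and exit steps, and the most abundant transcripts lay in between. Genes in between also differed, with PFKFB4 13.7 times and PFKP 9.07 times higher in their highest line than in their lowest. The level of SLC2A3, which encodes the glucose transporter GLUT3, was 65.3 ± 2.04 in A549, 12.1 ± 0.22 in H1975, 8.05 ± 0.34 in H3255 and 0.0164 ± 0.017 in H820 FPKM (mean ± SD, n = 3 vehicle libraries, as for all levels in vehicle). A549 thus held most of it, and in H820 the gene was at or near 0 in every vehicle library. SLC2A1, encoding GLUT1, had 62.5 ± 1.3 in H1975, 55.8 ± 1.4 in H3255, 25.8 ± 0.93 in A549 and 19.4 ± 0.63 in H820. Of the genes that phosphorylate glucose, HK1 ran from 32.4 ± 0.46 FPKM in H1975 to 8.53 ± 0.49 in A549, HK2 from 23.9 ± 0.76 FPKM in H1975 to 0.594 ± 0.06 in A549 and HKDC1 from 12.1 ± 0.64 FPKM in A549 to 0.0106 ± 0.0056 in H3255. H3255 therefore had almost no HKDC1 transcript and A549 little HK2. ADPGK, an ADP-dependent glucokinase, ran from 33.7 ± 2.02 FPKM in A549 to 12.01 ± 0.43 in H820. G6PC3, a glucose 6-phosphatase that works in the reverse direction, ran from 38.4 ± 1.02 FPKM in A549 to 17.6 ± 0.84 in H3255.

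Sorted under the side branch to glucose 1-phosphate were PGM1 (32 ± 0.63 FPKM in H820 to 9.07 ± 0.27 in H3255) and PGM2 (11.3 ± 0.49 FPKM in H1975 to 5.35 ± 0.35 in H3255). GPI, the isomerase that makes fructose 6-phosphate, ran from 70.03 ± 1.5 FPKM in A549 to 14.3 ± 0.6 in H3255. The 3 phosphofructokinase genes did not share an order. PFKP, the platelet type, ran from 123 ± 2.6 FPKM in A549 to 13.6 ± 0.35 in H3255, whereas PFKL, the liver type, was reversed at both ends, from 36.5 ± 0.4 FPKM in H3255 to 14.2 ± 0.4 in A549. PFKM, the muscle type, varied least of all members, from 10.4 ± 0.42 FPKM in H1975 to 8.39 ± 0.27 in H3255, and neither H1975 and H820 nor H820 and A549 differed in it by the test. The bifunctional enzymes that set fructose 2,6-bisphosphate, an activator of phosphofructokinase, also diverged. PFKFB3 had 81.4 ± 1.95 in A549, 18.2 ± 0.7 in H1975, 16.1 ± 0.51 in H3255 and 11.6 ± 0.22 in H820 FPKM. PFKFB4 ran from 14.9 ± 0.16 FPKM in H1975 to 1.09 ± 0.11 in H820 and PFKFB2 from 9.7 ± 0.55 FPKM in H3255 to 2.54 ± 0.11 in H1975.

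The middle and lower steps held the most abundant members. GAPDH ran from 3290 ± 142 FPKM in A549 to 955 ± 7.9 in H820, ENO1 from 1513 ± 33.4 FPKM in H3255 to 1058 ± 27.7 in A549 and PKM, the pyruvate kinase gene, from 1384 ± 26.2 FPKM in A549 to 302 ± 6.5 in H3255. ALDOA, the main aldolase here, ran from 973 ± 51.5 FPKM in H1975 to 397 ± 6.01 in H820, and TPI1 from 581 ± 29.5 FPKM in A549 to 223 ± 5.3 in H820. PGK1, which makes the first ATP of the payoff phase, ran from 185 ± 3.5 FPKM in H1975 to 39.5 ± 1.95 in H3255. PGAM1, the phosphoglycerate mutase, ran from 324 ± 26.1 FPKM in A549 to 75.1 ± 2.5 in H3255, also with H3255 lowest. The minor isoforms ALDOC (36.4 ± 0.79 FPKM in H1975 to 4.74 ± 0.5 in A549) and ENO2 (16.6 ± 0.32 FPKM in H1975 to 2.58 ± 0.18 in H820) were far below their partners. BPGM, which makes 2,3-bisphosphoglycerate, ran from 17.4 ± 0.4 FPKM in H3255 to 6.03 ± 0.49 in H820.

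At the exit, LDHA had 551 ± 9.9 in H1975, 468 ± 27.5 in A549, 166 ± 11.8 in H3255 and 118 ± 2.6 in H820 FPKM and LDHB had 536 ± 13.7 in H820, 521 ± 24.9 in A549, 423 ± 12.1 in H3255 and 275 ± 16.7 in H1975. SLC16A3, encoding the lactate exporter MCT4, ran from 61.5 ± 3.8 FPKM in H1975 to 6.53 ± 0.64 in H3255. SLC16A1, encoding MCT1, ran from 22.2 ± 0.85 FPKM in H1975 to 0.00881 ± 0.0072 in H3255, so that H3255 held SLC16A3 almost alone of the pair. The kinases that inhibit pyruvate dehydrogenase, PDK1 (7.18 ± 0.42 FPKM in H1975 to 3.24 ± 0.079 in A549) and PDK3 (7.43 ± 0.18 FPKM in H1975 to 2.36 ± 0.21 in A549), were low in all lines. The dehydrogenase subunits PDHA1 (23.02 ± 0.56 FPKM in A549 to 6.61 ± 0.17 in H3255) and PDHB (40.2 ± 0.9 FPKM in H1975 to 14.1 ± 1.4 in H3255) were lowest in H3255.

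**Figure D1:**
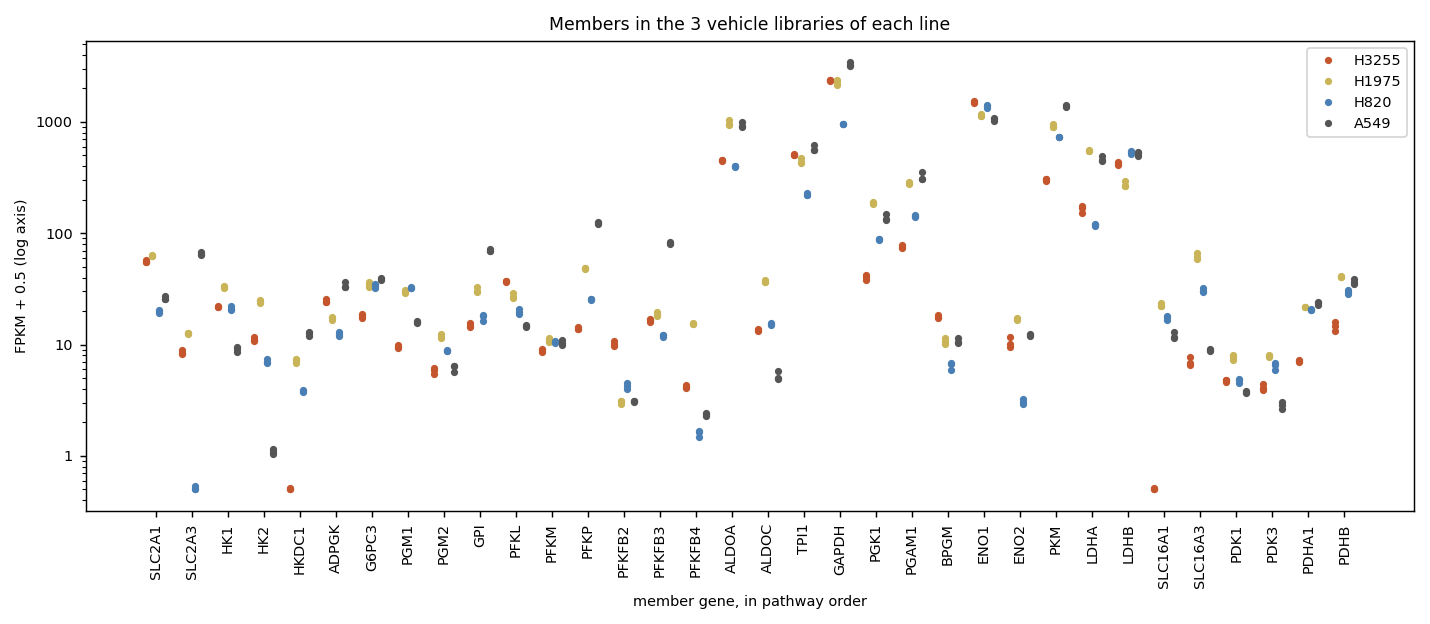
Level of the 34 members in the 3 vehicle libraries of each line, as FPKM + 0.5 on a log axis, with genes in pathway order along the horizontal axis. Each point is a library. The points of a line lie close together, SLC2A3 in H820 and HKDC1 and SLC16A1 in H3255 lie at the bottom of the axis, and GAPDH, ENO1 and PKM lie near its top.

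Nearly every member differed between any pair of lines in vehicle, but so did most of the transcriptome, so these counts single out nothing about glycolysis. Of 34 members, limma called 33 between H3255 and H1975 (background 86.1% of all genes tested), 32 between H3255 and H820 (86.3%), 33 between H3255 and A549 (87.1%), 32 between H1975 and H820 (83.7%), 30 between H1975 and A549 (84.6%) and 32 between H820 and A549 (85.2%). Between H3255 and H1975, 26 members were lower and 7 higher in H3255, beside 49.8% and 36.3% of all genes. With libraries rescaled by medians of ratios these were 24 and 8 members, beside 41.9% and 44.0%. Between H1975 and A549, 17 members were higher and 13 lower in H1975 (52.3% and 32.3% of all genes), but after the same rescaling 14 were higher and 18 lower (42.7% and 41.3%), so the balance in that pair turned with the scaling. That rescaling moved the median of all genes by 0.15, -0.15 and -0.19 (log2) in the comparisons of H1975 with H3255, H820 and A549. The differences of H3255 from H1975 in SLC2A1 (-0.16 ± 0.04, SE) and PFKFB3 (-0.17 ± 0.04) were called but are about as large as that shift. The order of these lines in both genes is therefore uncertain. Neighbours in the order of levels that the test did not separate were H3255 and H820 for HK1 and PDK1, H1975 and H820 for G6PC3, A549 and H3255 for PGM2, A549 and H1975 for PFKFB2 and BPGM, H1975 and A549 for ALDOA, H3255 and H1975 for GAPDH, and H820 and A549 for LDHB.

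Isoform use by line was described as the share of each gene in the summed FPKM of its family, without a test, because an exact two-sided permutation test of 3 libraries against 3 cannot go below p = 0.1. SLC2A1 led SLC2A3 in 3 lines, with 55.1, 54.9 and 57.4 FPKM in H3255, 63.8, 62.3 and 61.4 FPKM in H1975 and 19.8, 19.7 and 18.6 FPKM in H820 in the 3 vehicle libraries. Its share was 87.4% ± 0.23, 83.7% ± 0.5 and 99.9% ± 0.09 (SD, n = 3). A549 was the exception, where SLC2A3 led with 67.4, 63.4 and 64.96 FPKM and a share of 71.7% ± 0.33.

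HK1 led the hexokinases in 3 lines, with 21.4, 21.1 and 21.5 FPKM in H3255, 32.9, 32.2 and 32.01 FPKM in H1975 and 20.1, 20.2 and 21.5 FPKM in H820. In A549 the lead passed to HKDC1, with 11.3, 12.5 and 12.3 FPKM and a share of 56.9% ± 2.2. HK2, the inducible hexokinase of many tumours, led nowhere, and its share was highest in H1975 at 38.0% ± 1.2. PFKL led the phosphofructokinases in H3255, with 36.7, 36.1 and 36.8 FPKM and 62.5% ± 0.14 of the family. PFKP led in the other 3 lines, with 47.9, 47.3 and 48.1 FPKM in H1975, 25.3, 24.8 and 25.3 FPKM in H820 and 124, 120.2 and 125 FPKM in A549. Its share rose in the order 46.1% ± 1.2 in H820, 56.3% ± 0.77 in H1975 and 83.6% ± 0.33 in A549.

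PFKFB3 led its family in all 4 lines, with 15.6, 16.1 and 16.6 FPKM in H3255, 17.6, 18.1 and 18.98 FPKM in H1975, 11.3, 11.8 and 11.6 FPKM in H820 and 79.3, 81.8 and 83.1 FPKM in A549. The second gene differed, being PFKFB2 in H3255 (32.9% ± 1.1) and PFKFB4 in H1975 (41.8% ± 1.1). ALDOA led ALDOC everywhere, with 452, 447 and 452 FPKM in H3255, 1030, 931 and 956 FPKM in H1975, 390.4, 402 and 399 FPKM in H820 and 993, 904 and 914 FPKM in A549. ENO1 led ENO2 everywhere, with 1496, 1492 and 1551 FPKM in H3255, 1179, 1141 and 1132 FPKM in H1975, 1397, 1412 and 1334 FPKM in H820 and 1084, 1061 and 1029 FPKM in A549. Both leaders held over 96% of their family in vehicle.

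LDHB, the subunit that favours the heart-type enzyme, led LDHA in H3255, H820 and A549, with 409.6, 433 and 426 FPKM in H3255, 540.3, 546 and 520.2 FPKM in H820 and 541, 493 and 528 FPKM in A549. LDHA led in H1975, with 562, 548 and 543 FPKM and 66.7% ± 0.94 of the pair. LDHA held 28.2% ± 1.99 in H3255, 18.1% ± 0.35 in H820 and 47.3% ± 0.77 in A549. The files list a second entry for LDHA and for SLC16A1 with similar values, and a pair of further entries for GPI. With its entries summed, the share of LDHA became 80.0% ± 0.69 in H1975, 45.1% ± 1.1 in H3255, 30.9% ± 0.08 in H820 and 64.4% ± 0.92 in A549, which gives LDHA the lead in A549. The level of these genes relative to their partners is therefore uncertain, but summing the entries left every call of LDHA and GPI between MinE07 and C36 in place.

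SLC16A3 led SLC16A1 in H3255, H1975 and H820, with 6.04, 7.25 and 6.3 FPKM in H3255, 65.4, 61.1 and 57.9 FPKM in H1975 and 30.03, 31.9 and 29.4 FPKM in H820. SLC16A1 led in A549, with 12.5, 10.9 and 11.2 FPKM and 57.7% ± 1.3 of the pair. With its entries summed, SLC16A1 led in H820 as well (52.5% ± 1.2). PDK1 led PDK3 in H3255 and A549, with 4.28, 4.34 and 4.15 FPKM in H3255 and 3.29, 3.28 and 3.15 FPKM in A549, and PDK3 led in H1975 and H820, with 7.63, 7.38 and 7.28 FPKM in H1975 and 5.47, 6.32 and 6.12 FPKM in H820. In H1975 the PDK3 share was 50.9% ± 1.98, which is within its spread of an even split. PGM1 led PGM2 in all lines, with 9.06, 9.34 and 8.8 FPKM in H3255, 30.7, 28.7 and 28.9 FPKM in H1975, 31.5, 31.9 and 32.7 FPKM in H820 and 15.5, 15.1 and 15.8 FPKM in A549. PDHB exceeded PDHA1 in all lines, with 12.7, 15.5 and 14.3 FPKM in H3255, 41.2, 39.6 and 39.7 FPKM in H1975, 29.2, 30.4 and 28.1 FPKM in H820 and 38.6, 34.8 and 36.01 FPKM in A549.

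**Figure D2:**
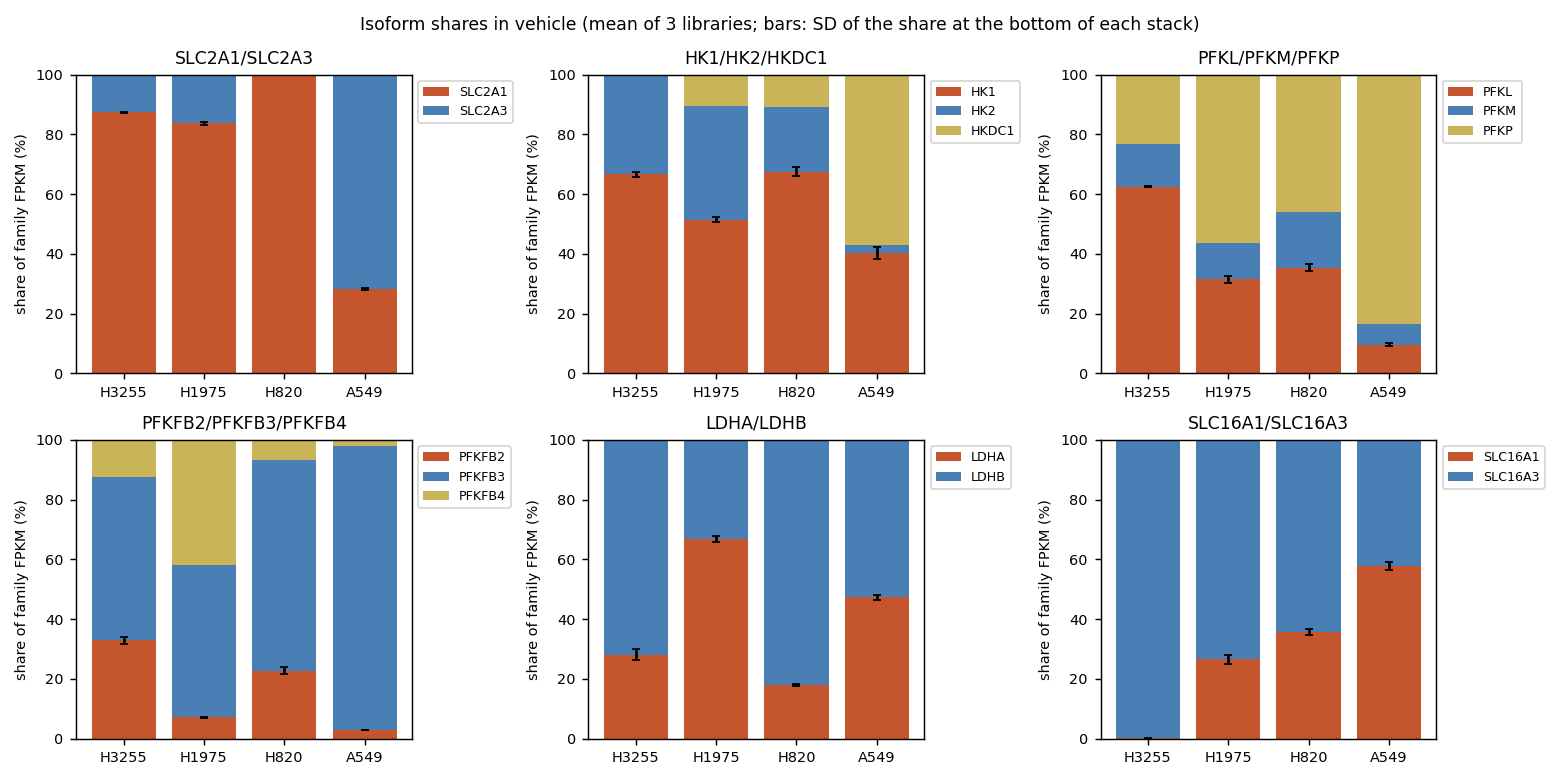
Share of each gene in the summed FPKM of its family in vehicle (percent, stacked, mean of 3 libraries) for 6 families and 4 lines, with the SD of the lowest segment as a bar. A549 stands out by SLC2A3 and HKDC1, H3255 by PFKL and by SLC16A3 without SLC16A1, and H1975 by LDHA and PFKFB4.

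Setting MinE07 against C36 within a line asks which glycolytic transcripts change with the EGFR aptamer over and above a control aptamer. In H3255 at least 1 gene was called lower at each of the 10 steps into which the members were sorted. At the pyruvate dehydrogenase step these were the inhibiting kinases PDK1 and PDK3, and not the subunits PDHA1 and PDHB. Of 32 members tested, 23 were called lower and 0 higher by limma, against backgrounds of 20.0% of all genes lower and 16.6% higher. The change was negative in 30 members, with a median of -0.32 (log2, as for all changes given here with their SE) beside -0.01 over all genes. In bulk libraries, fewer cells holding a transcript and less of it per cell cannot be told apart, and FPKM is relative to each library's total.

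The largest change was in SLC2A3, which had 2.43, 2.53 and 2.97 FPKM with MinE07 and 7.77, 7.47 and 7.51 with C36. The MinE07 libraries lay far below all C36 libraries, and SLC2A3 fell by 1.37 ± 0.06 on the log2 scale (SE, adjusted p = 1.8e-07). SLC2A1 also fell, from 47.2 to 35.1 FPKM (-0.42 ± 0.05, adjusted p = 0.00013). LDHA, the subunit that favours making lactate, had 75.5, 74.2 and 75.1 FPKM with MinE07 and 141, 138 and 149.8 with C36. Its 3 MinE07 libraries were nearly equal and lay under all C36 libraries, and LDHA fell by 0.92 ± 0.05 on the log2 scale (SE, adjusted p = 6.2e-07). LDHB, in contrast, had 388, 375 and 404 FPKM with MinE07 and 383, 389 and 409 with C36. The groups overlapped, and the change of LDHB was -0.02 ± 0.04 (adjusted p = 0.75).

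PGK1 had 23.7, 23.4 and 25.1 FPKM with MinE07 and 37.8, 36.6 and 38.1 with C36. The groups did not overlap, and PGK1 fell by 0.63 ± 0.04 on the log2 scale (SE, adjusted p = 2.5e-06). PDK1 had 2.2, 2.36 and 2.17 FPKM with MinE07 and 3.15, 3.89 and 3.72 with C36. All MinE07 libraries were lower, and PDK1 fell by 0.57 ± 0.07 on the log2 scale (SE, adjusted p = 0.00011), with PDK3 following at -0.24 ± 0.06 (adjusted p = 0.0085). PFKP had 8.65, 9.004 and 9.13 FPKM with MinE07 and 13.4, 13.6 and 12.9 with C36. These too did not overlap, and PFKP fell by 0.55 ± 0.04 on the log2 scale (SE, adjusted p = 2.1e-06). The other phosphofructokinases were not called, with -0.05 ± 0.04 (adjusted p = 0.38) for PFKL and -0.09 ± 0.05 (adjusted p = 0.16) for PFKM.

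**Figure D3:**
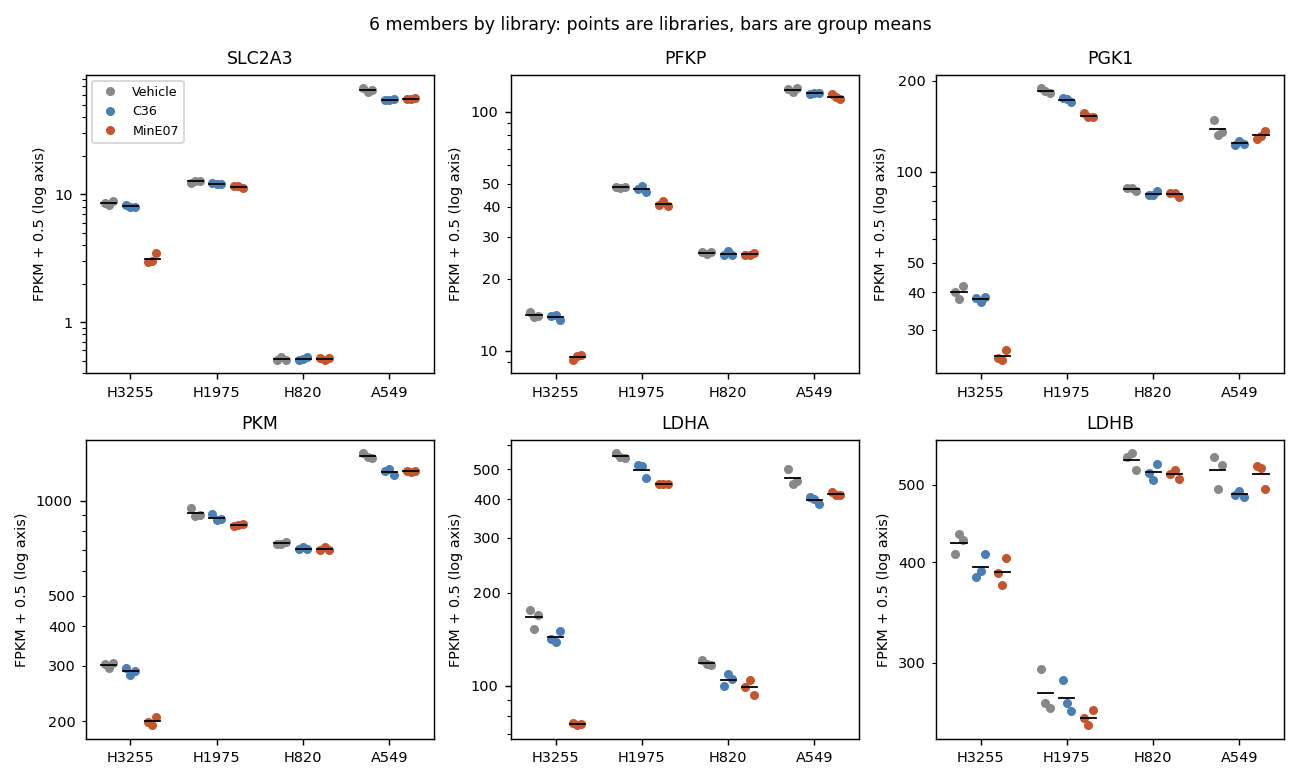
FPKM + 0.5 (log axis) of 6 members in all 36 libraries, by line and treatment, each point a library and each bar the mean of 3. In H3255 the MinE07 points of SLC2A3, PFKP, PGK1, PKM and LDHA lie below those of C36 and vehicle without overlap, while those of LDHB overlap with C36.

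Step by step, both glucose transporters, GPI and all 3 genes of the aldolase and triose isomerase step were called lower in H3255. ALDOA fell from 426 to 291 FPKM (-0.55), TPI1 from 474 to 374 FPKM (-0.34), ALDOC from 12.6 to 10.1 FPKM (-0.31) and GPI from 13.9 to 10.4 FPKM (-0.40). In lower glycolysis 6 of 7 were called. GAPDH fell from 2296 to 1753 FPKM (-0.39), PGAM1 from 69.7 to 49.5 FPKM (-0.49), ENO1 from 1362 to 1046 FPKM (-0.38), ENO2 from 10.6 to 7.51 FPKM (-0.47) and PKM from 288 to 199.5 FPKM (-0.53). BPGM, off the main line, was the exception at 0.04 ± 0.03 (adjusted p = 0.39). GAPDH is often used as a reference gene, and it dropped by 23.7% on the log2(FPKM + 0.5) scale.

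Of the glucose-phosphorylating genes, HK2 fell from 9.43 to 6.8 FPKM (-0.44), HK1 from 20.9 to 18.4 FPKM (-0.18) and ADPGK from 25.03 to 22.2 FPKM (-0.17). G6PC3, the phosphatase, had the highest change of all members at 0.11 ± 0.04 (adjusted p = 0.077), and was not called. PGM1 fell from 7.6 to 6.5 FPKM (-0.21) and PGM2 was not called (-0.03). Among the regulators of fructose 2,6-bisphosphate, PFKFB4 fell from 2.8 to 1.79 FPKM (-0.53) and PFKFB3 from 14.2 to 12.8 FPKM (-0.14), while PFKFB2 was at -0.03 ± 0.04 (adjusted p = 0.64). SLC16A3 fell from 6.87 to 5.77 FPKM (-0.23). The subunits PDHA1 (-0.07 ± 0.04, adjusted p = 0.17) and PDHB (-0.15 ± 0.07, adjusted p = 0.11) were not called.

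Of these 23 calls, 20 were made under every alternative and with any library left out. ADPGK was not called without C36 replicate 1 or MinE07 replicate 1 (adjusted p = 0.074 and 0.060). PFKFB3 was not called without C36 replicate 1 or 2 or without any one of the MinE07 libraries (adjusted p from 0.058 to 0.11), and its change was -0.092 without C36 replicate 2. SLC16A3 was not called without C36 replicate 2 or 3 or MinE07 replicate 1 or 2 (adjusted p from 0.067 to 0.095). ADPGK, PFKFB3 and SLC16A3 were also not called without the filter on low genes.

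Members of a family changed by different amounts in H3255, and their shares with MinE07 are again described without a test. The LDHA share was 28.2% ± 1.99 in vehicle, 26.6% ± 0.38 with C36 and 16.2% ± 0.45 with MinE07. With the entries of LDHA summed it was 45.1% ± 1.1, 43.1% ± 0.86 and 28.3% ± 0.53. The PFKL share of the phosphofructokinases was 62.5% ± 0.14, 62.4% ± 0.66 and 67.5% ± 1.1 in the same order. The SLC2A1 share of the 2 transporters was 87.4% ± 0.23, 86.1% ± 0.66 and 93.0% ± 0.34. HK1 held 66.6% ± 0.81, 68.9% ± 0.37 and 73.0% ± 0.98 of the hexokinases. In each of these 4 families the gene with the larger share in H3255 gained share. That did not hold in every family. PGM1, the leader of its pair, held 62.9% ± 1.8, 57.6% ± 1.5 and 54.3% ± 0.91 in the same order. ALDOA held 97.2% ± 0.055, 97.1% ± 0.14 and 96.7% ± 0.12, and PFKFB3 held 54.6% ± 0.78, 53.2% ± 1.5 and 53.2% ± 1.02. PDK1 held 52.3% ± 4.1 of its pair with C36, a spread that includes an even split, and 45.6% ± 1.6 with MinE07.

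**Figure D4:**
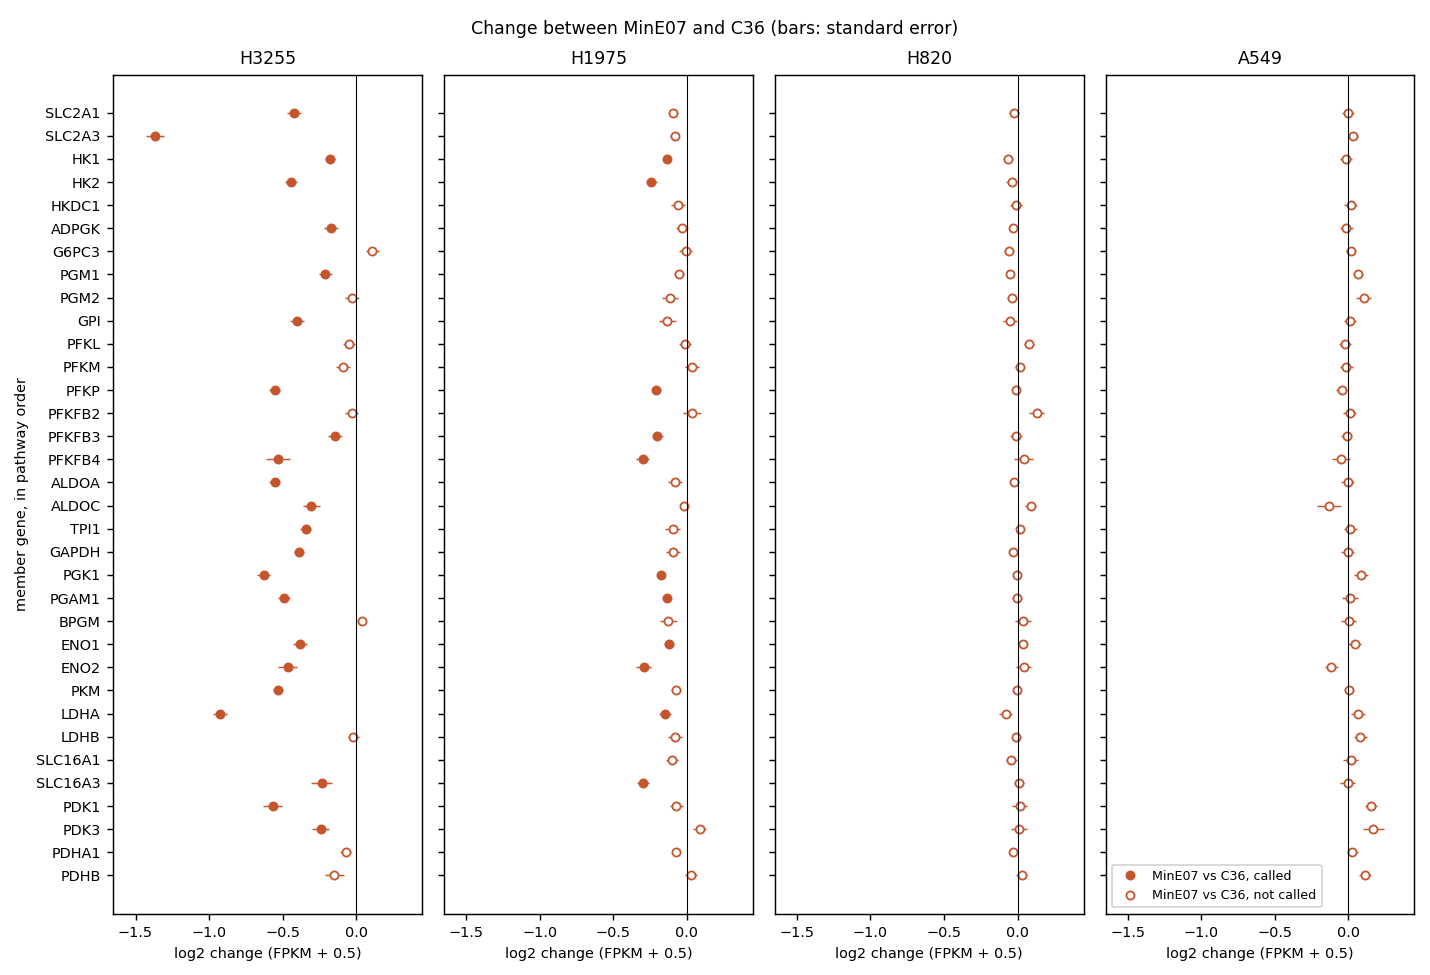
Log2 change of log2(FPKM + 0.5) between MinE07 and C36 for each member tested, in pathway order from top to bottom, 1 panel per line, with the standard error as a bar and filled points for calls at an adjusted p under 0.05. In H3255, 23 points are filled and all lie left of 0, in H1975 11 are, and in H820 and A549 none.

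Since so many members fell together in H3255, their promoters were read from RefSeq (GRCh38.p14), as the 250 bases before each annotated start. Of the members, 31 matched by symbol with 61 starts, and SLC2A3, PFKFB2 and SLC16A1 did not match. The letters searched were ACGTG and GCGTG on both strands, the core bound by hypoxia-inducible factors, and ACGTG also lies inside CACGTG, an E-box bound by MYC and USF proteins. A CACGTG counts as a match on each strand. The promoters printed here are those of LDHA and PGK1, with 2 of the 3 largest falls, and of LDHB, the partner of LDHA that was not called, with the matched letters in capitals.
LDHA, chr11:18394313-18394562, plus strand: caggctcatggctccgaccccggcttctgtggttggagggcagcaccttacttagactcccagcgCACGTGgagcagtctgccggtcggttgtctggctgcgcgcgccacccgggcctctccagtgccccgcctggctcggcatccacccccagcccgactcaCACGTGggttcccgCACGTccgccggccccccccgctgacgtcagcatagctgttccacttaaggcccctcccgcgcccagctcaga
PGK1, chrX:78103998-78104247, plus strand: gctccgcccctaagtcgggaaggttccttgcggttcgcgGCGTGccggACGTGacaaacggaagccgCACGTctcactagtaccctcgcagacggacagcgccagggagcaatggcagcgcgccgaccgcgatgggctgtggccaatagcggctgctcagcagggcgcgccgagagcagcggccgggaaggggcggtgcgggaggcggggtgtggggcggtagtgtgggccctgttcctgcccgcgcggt
LDHB, chr12:21657843-21658092, minus strand: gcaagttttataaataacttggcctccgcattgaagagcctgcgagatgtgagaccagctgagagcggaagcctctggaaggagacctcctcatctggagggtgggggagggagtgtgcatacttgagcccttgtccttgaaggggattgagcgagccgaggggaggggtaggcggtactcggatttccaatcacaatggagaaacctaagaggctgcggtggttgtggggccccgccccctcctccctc
LDHA held 5 matches in this window and 1 in the window of its second annotated start, PGK1 held 3 and LDHB held 0. That contrast did not extend to the list. At least 1 match was found in 27 of 44 promoters of members called lower in H3255 (61.4%), in 9 of 16 promoters of members not called (56.3%) and in 43.2% of all 35116 RefSeq promoters. The mean number of matches per promoter was 1.32 for members called lower, 1.63 for members not called and 0.76 for all RefSeq promoters. SLC2A1, PGAM1 and PKM fell with 0 matches in their windows, and PDHB held 6 and was not called. Among the other members not called, G6PC3, PGM2, PFKL, PFKM, BPGM and PDHA1 each held a match in at least 1 window, unlike LDHB. A match describes letters only. The counts are of annotated starts and not of genes, so genes with many starts, such as HK1 and PFKM, weigh more in them. Several starts of a gene overlap.

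In H1975, the second line with EGFR L858R, fewer members were called and the median change was smaller. Of 34 members, 11 were called lower and 0 higher, against backgrounds of 11.1% of all genes lower and 8.88% higher. The change was negative in 30 members, with a median of -0.09 beside -0.01 over all genes. All 11 were also called in H3255, which is 100% of the H1975 calls and 47.8% of the H3255 calls. Among them, SLC16A3 (-0.30 against -0.23) and PFKFB3 (-0.20 against -0.14) fell further in H1975, and the others fell further in H3255. Over all genes tested in both lines, the lower calls in common made up 57.8% of the H1975 calls and 33.2% of the H3255 calls. The 2 lines share no library.

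PFKFB4, whose level is highest in H1975, had 11.5, 11.99 and 10.8 FPKM with MinE07 and 14.1, 14.8 and 13.7 with C36, without overlap. It fell by 0.30 ± 0.04 on the log2 scale (SE, adjusted p = 0.0015). SLC16A3, the lactate exporter gene, had 52.7, 54.3 and 52.3 FPKM with MinE07 and 66.1, 65.96 and 63.8 with C36, again without overlap, and fell by 0.30 ± 0.04 on the log2 scale (SE, adjusted p = 0.0014). ENO2, the neuron-type enolase, had 13.05, 13.4 and 13.1 FPKM with MinE07 and 15.5, 17.8 and 15.6 with C36. The groups stood apart, and ENO2 fell by 0.29 ± 0.05 on the log2 scale (SE, adjusted p = 0.0029). HK2 had 18.7, 17.6 and 17.8 FPKM with MinE07 and 20.9, 22.2 and 21.1 with C36 and fell by 0.24 ± 0.04 on the log2 scale (SE, adjusted p = 0.0023). PFKP had 40.4, 41.7 and 39.7 FPKM with MinE07 and 46.8, 48.5 and 45.6 with C36 and fell by 0.21 ± 0.03 on the log2 scale (SE, adjusted p = 0.0018). The libraries of both genes did not overlap between the groups.

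The other calls in H1975 were PFKFB3 (-0.20 ± 0.04, adjusted p = 0.005), PGK1 (-0.18 ± 0.03, adjusted p = 0.0028), LDHA (-0.15 ± 0.04, adjusted p = 0.025), PGAM1 (-0.14 ± 0.03, adjusted p = 0.014), HK1 (-0.13 ± 0.03, adjusted p = 0.012) and ENO1 (-0.12 ± 0.03, adjusted p = 0.03). SLC2A3, with the largest change in H3255, was at -0.08 ± 0.03 (adjusted p = 0.093) and SLC2A1 at -0.09 ± 0.03 (adjusted p = 0.055), neither called. The remaining steps without a call were GPI (-0.13), the aldolases and TPI1 (-0.08, -0.02 and -0.10 for ALDOA, ALDOC and TPI1), PGM1 and PGM2, and the 4 pyruvate dehydrogenase genes. LDHA was not called without C36 replicate 1 or 2 or any one MinE07 library (adjusted p from 0.065 to 0.096), ENO1 without any one C36 library or MinE07 replicate 1 or 2 (from 0.052 to 0.10), and PGAM1 without MinE07 replicate 1 (0.054). LDHA was also not called without the filter on low genes.

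In H820 and A549 no member was called between MinE07 and C36, also under every alternative run. In H820, limma called 0 of 33 (background 0.0364%), with 3 members at an unadjusted p under 0.05 (10.2% of all genes were) and changes between -0.08 and 0.13. LDHA there had 98.9, 104 and 93.3 FPKM with MinE07 and 99.5, 109 and 105 with C36, which overlap. In A549, 0 of 33 were called (background 0%), with 4 at an unadjusted p under 0.05 (10.8% of all genes) and changes between -0.13 and 0.17. SLC2A3 in A549, its highest line, had 55.2, 55.8 and 56.2 FPKM with MinE07 and 53.9, 54.02 and 55.4 with C36, which overlap and gave 0.03 ± 0.03 (adjusted p = 0.75). LDHA in A549 had 421, 411 and 413 FPKM with MinE07 and 406, 399 and 385 with C36, which do not overlap but gave a difference of 0.06 ± 0.05 (adjusted p = 0.64). The medians of the members were -0.01 in H820 and 0.01 in A549, beside 0.01 over all genes in H820 and 0.0016 in A549.

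Against vehicle, members also fell with MinE07 in H3255, in a comparison that shares its MinE07 libraries with the one against C36. Of 32 members, 23 were called lower and 0 higher (background 17.2% lower and 21.4% higher, or 25.2% and 16.3% with medians-of-ratios scaling), with a median of -0.41 beside 0.01 over all genes. SLC2A3 had 7.99, 7.74 and 8.42 FPKM in vehicle and fell by 1.45 ± 0.06 on the log2 scale (SE, adjusted p = 1.3e-07). LDHA had 175, 153 and 169 FPKM in vehicle and fell by 1.14 ± 0.05 on the log2 scale (SE, adjusted p = 1.7e-07). PFKFB4 had 1.56, 1.73 and 2.08 FPKM with MinE07 and 3.58, 3.63 and 3.83 in vehicle, which did not overlap. It fell by 0.88 ± 0.08 on the log2 scale (SE, adjusted p = 2.2e-05). PDHA1 (-0.15 ± 0.04, adjusted p = 0.0078) and LDHB (-0.12 ± 0.04, adjusted p = 0.032) were called here and not against C36. The LDHB call was lost without MinE07 replicate 1 or 2 or vehicle replicate 2 or 3 (adjusted p from 0.062 to 0.12). It was also lost without the filter on low genes. ADPGK was not called here, at -0.12 ± 0.05 (adjusted p = 0.068), nor was SLC16A3, at -0.16 ± 0.07 (adjusted p = 0.097).

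In H1975, 20 of 34 members were called lower and 0 higher against vehicle (background 12.9% lower and 10.8% higher), with a median of -0.15. HK2 had 23.02, 24.4 and 24.2 FPKM in vehicle, all above MinE07, and fell by 0.40 ± 0.04 on the log2 scale (SE, adjusted p = 0.00021). PFKFB4 had 15.1, 14.8 and 14.9 FPKM in vehicle and fell by 0.37 ± 0.04 on the log2 scale (SE, adjusted p = 0.00051). ENO2 had 16.5, 16.9 and 16.2 FPKM in vehicle and fell by 0.32 ± 0.05 on the log2 scale (SE, adjusted p = 0.0018). Calls that were not made against C36 included both glucose transporters (SLC2A1 -0.18, SLC2A3 -0.14), GPI (-0.26), ALDOC (-0.19), PKM (-0.13), SLC16A1 (-0.17), PGM2 (-0.22), PDK1 (-0.29) and PDHA1 (-0.09). Of these, ALDOC and PDK1 were at -0.17 and -0.22 with C36 against vehicle, and at -0.02 and -0.07 between MinE07 and C36. In the same order of comparisons, PDHA1 was at -0.02 and -0.07, and SLC16A1 at -0.06 and -0.10. The calls of PGM2, PKM, SLC16A1 and PDHA1 were lost without single libraries, namely MinE07 or vehicle replicate 2 for PGM2, any MinE07 library for PKM, MinE07 replicate 3 or vehicle replicate 2 for SLC16A1 and any library of the pair of groups for PDHA1 (adjusted p from 0.050 to 0.14). GPI was not called without the filter on low genes (adjusted p = 0.068), and its change was -0.14 with its entries summed. PGM2, SLC16A1 and PDHA1 were also not called without that filter, and PDHA1 was not called with the replicate block.

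In H820, 3 of 33 members were called lower with MinE07 against vehicle (background 1.03%). LDHA had 98.9, 104 and 93.3 FPKM with MinE07 and 121, 117 and 116 in vehicle. The groups did not overlap, and LDHA fell by 0.26 ± 0.04 on the log2 scale (SE, adjusted p = 0.014). ALDOA had 357, 362 and 359 with MinE07 and 390.4, 402 and 399 in vehicle, a change of -0.14 ± 0.03 (adjusted p = 0.018). PGM1 had 29.6, 29.3 and 29.4 and 31.5, 31.9 and 32.7, a change of -0.12 ± 0.03 (adjusted p = 0.046). None of the 3 calls outlived every single omission. LDHA was not called without vehicle replicate 1 or 2 (adjusted p = 0.059 and 0.052), ALDOA without MinE07 replicate 2 or 3 or vehicle replicate 2 or 3 (from 0.055 to 0.079), and PGM1 without any one of the 6 (from 0.078 to 0.13). Without MinE07 replicates 1 and 2 together, 1 member was called.

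In A549, 1 of 33 members was called lower with MinE07 against vehicle (background 0.0968%). It was SLC2A3, with 55.2, 55.8 and 56.2 FPKM with MinE07 and 67.4, 63.4 and 64.96 in vehicle, which did not overlap. The change was -0.23 ± 0.03 (adjusted p = 0.044), and it was called without vehicle replicate 1 but not without any other single library of the pair (adjusted p from 0.096 to 0.15). Without vehicle replicate 1, 4 members were called, 3 lower and 1 higher.

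C36 against vehicle shows what the control aptamer did, and it shares the vehicle libraries with the comparison of MinE07. In H3255, 0 of 32 members were called by limma (background 0.305%), with 13 at an unadjusted p under 0.05, as were 15.9% of all genes. Medians-of-ratios scaling gave 3 calls, summed copies 1 and a single fit of all 36 libraries 8, all lower. SLC2A1 had 45.9, 49.3 and 46.2 FPKM with C36 and 55.1, 54.9 and 57.4 in vehicle, and LDHA had 141, 138 and 149.8 and 175, 153 and 169. Neither gene overlapped between these groups, and their changes were -0.24 ± 0.05 (adjusted p = 0.079) and -0.21 ± 0.05 (adjusted p = 0.097). The median of the members was -0.07 beside 0.02 over all genes. The change with C36 was negative in 24 of the 32 members.

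In H1975, 1 of 34 members was called lower with C36 (background 0.190%). This was ALDOC, with 32.8, 31.97 and 32.3 FPKM with C36 and 37.3, 35.7 and 36.3 in vehicle. The libraries did not overlap and the change was -0.17 ± 0.03 (adjusted p = 0.044). It was not called without any one C36 library or vehicle replicate 2 or 3 (adjusted p from 0.12 to 0.18). Members that were not called but did not overlap included PDK1 (-0.22 ± 0.04, adjusted p = 0.07), HK2 (-0.16 ± 0.04, adjusted p = 0.11) and LDHA (-0.15 ± 0.04, adjusted p = 0.14). G6PC3 was higher with C36, also without overlap (0.11 ± 0.04, adjusted p = 0.29). In H820, 1 of 33 was called lower (background 1.29%). This was ALDOA, with 355, 367 and 374 FPKM with C36 and the vehicle values given above, a change of -0.12 ± 0.03 (adjusted p = 0.04). It was not called without C36 replicate 1 or 2 or any one vehicle library (adjusted p from 0.067 to 0.14). LDHA was not called in H820 but was at -0.18 ± 0.04 with C36 (adjusted p = 0.062), without overlap. With MinE07 against the same vehicle libraries it was at -0.26 ± 0.04. PDK1 was at -0.17 ± 0.05 with C36 (adjusted p = 0.087), and HK2 went the other way at 0.17 ± 0.04 (adjusted p = 0.06).

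A549 had the most calls with C36, 7 of 33, all lower (background 2.38%), with a median of -0.08 beside 0.01 over all genes. SLC2A3 had 53.9, 54.02 and 55.4 FPKM with C36, all below the vehicle libraries given above, and fell by 0.26 ± 0.03 on the log2 scale (SE, adjusted p = 0.0062). LDHA had 406, 399 and 385 FPKM with C36 and 499, 446 and 459 in vehicle. The groups did not overlap, and LDHA fell by 0.24 ± 0.05 on the log2 scale (SE, adjusted p = 0.022). PDK1 had 2.62, 2.73 and 2.71 and 3.29, 3.28 and 3.15, also apart, and fell by 0.23 ± 0.04 on the log2 scale (SE, adjusted p = 0.018). The others were PFKFB3 (-0.22 ± 0.04, adjusted p = 0.014), SLC2A1 (-0.19 ± 0.04, adjusted p = 0.024), GPI (-0.17 ± 0.04, adjusted p = 0.039) and PKM (-0.16 ± 0.04, adjusted p = 0.03). With MinE07 against the same vehicle libraries, these genes other than SLC2A3 were not called, at -0.23 for PFKFB3, -0.19 for SLC2A1, -0.17 for LDHA, -0.16 for GPI, -0.16 for PKM and -0.076 for PDK1. PDK1 was the one of the 7 furthest apart between the aptamers, with 2.98, 3.13 and 3.03 FPKM with MinE07, all above C36. That difference between MinE07 and C36 was 0.16 ± 0.04 (adjusted p = 0.34) and was not called.

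The A549 count depended on single libraries. It was 2 without C36 replicate 1, 1 without C36 replicate 2 or 3, and 2 without vehicle replicate 3, and only SLC2A3 was called under every alternative. LDHA was not called without any one C36 library or vehicle replicate 3, PFKFB3 without C36 replicate 2 or 3 or vehicle replicate 3, PDK1 without any one C36 library, SLC2A1 without any one C36 library or vehicle replicate 3, PKM without any one C36 library or vehicle replicate 2 or 3, and GPI without any one of the 6 (adjusted p from 0.051 to 0.15). With 1 fit of 36 libraries, 12 were called, all lower.

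**Figure D5:**
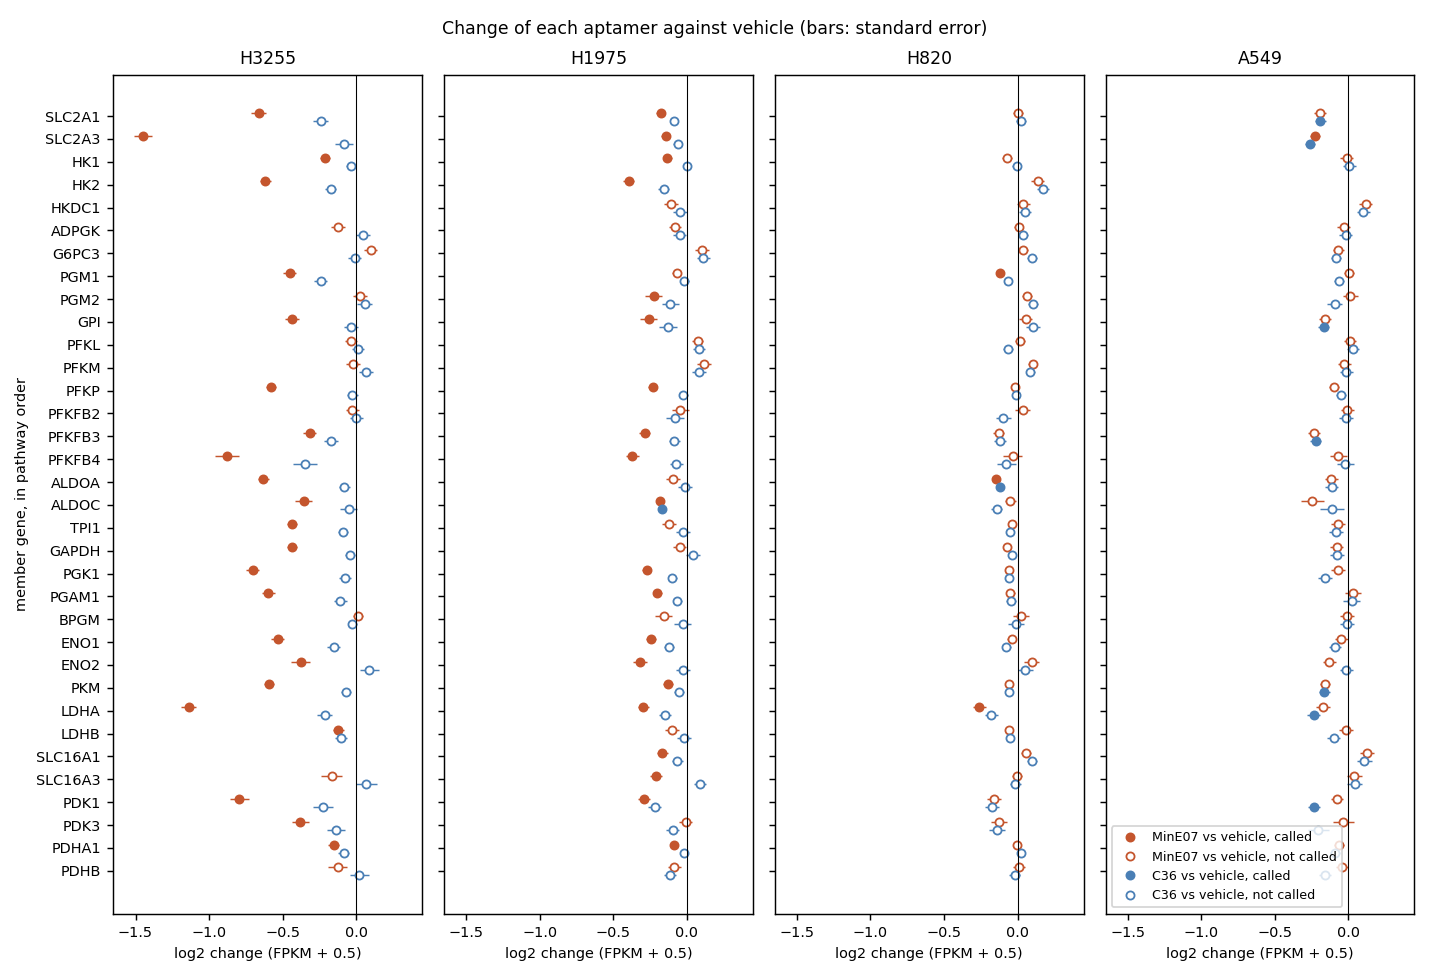
Log2 change of each member against vehicle with MinE07 and with C36, 1 panel per line, with standard errors as bars and filled points for calls. Both sets share the vehicle libraries. In H3255 the MinE07 points reach -1.45 for SLC2A3 and the C36 points stay between -0.34 and 0.09. In A549 the points of the 2 aptamers are furthest apart for PDK3 and PDK1, by 0.17 and 0.16.

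Interaction terms, fitted over the 36 libraries together, tested whether lines differed in how far MinE07 stood from C36. The average of both EGFR L858R lines less that of H820 and A549 was called lower for 22 of 34 members and higher for 0 (background 14.3% lower and 10.1% higher). It was largest for SLC2A3 (-0.74 ± 0.04, log2 ± SE), LDHA (-0.53 ± 0.05), PGK1 (-0.44 ± 0.04), PFKFB4 (-0.41 ± 0.06) and PDK1 (-0.41 ± 0.05). H820 had almost no SLC2A3, so its change in that gene is near 0 whatever the treatment. HK2 likewise lay between 0.511 and 0.655 FPKM in A549, where the pseudocount holds its change near 0. The others called, all lower, were PFKP, ENO2, PGAM1, HK2, ALDOA, PKM, ENO1, SLC16A3, GPI, SLC2A1, TPI1, GAPDH, PDK3, PFKFB3, PGM1, HK1 and PDHA1. Several members with a call here, among them SLC2A3, PDK1, ALDOA and PKM, were not called in H1975 on its own. The calls of PDK3 and PDHA1 were lost when any of many single libraries was left out, and also without the filter and with the replicate block. The SE of this contrast comes from libraries within lines, and each genotype is represented by single lines. L858R and other differences between the lines therefore cannot be told apart. H820 also carries mutant EGFR, and it shares T790M with H1975.

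The 2 L858R lines also differed from each other. H3255 minus H1975 was called lower for 17 members and higher for 0 (background 8.48% lower and 6.74% higher). The difference was -1.29 ± 0.06 for SLC2A3, -0.78 ± 0.07 for LDHA, -0.50 ± 0.07 for PDK1, -0.47 ± 0.05 for ALDOA, -0.46 ± 0.04 for PKM and -0.45 ± 0.05 for PGK1. The rest were PGAM1, PFKP, PDK3, SLC2A1, GAPDH, ALDOC, GPI, ENO1, TPI1, HK2 and PGM1, of which ALDOC, HK2 and PGM1 were not called without some single libraries. PFKFB4 (-0.23 ± 0.09), PFKFB3 (0.06 ± 0.06), ENO2 (-0.17 ± 0.08), SLC16A3 (0.06 ± 0.08) and HK1 (-0.04 ± 0.05), called lower in both lines on their own, were not called in this difference. H1975 also carries T790M and differs from H3255 in its other background, which cannot be told apart.

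The neighbouring branches of glucose metabolism, a list of 45 other genes, had calls in both directions in H3255. Of 31 tested, 8 were called lower and 10 higher between MinE07 and C36, beside 20.0% and 16.6% of all genes, and the median change was 0.00. Both calls in gluconeogenesis, of 3 tested, were higher. They were PCK2, the mitochondrial PEP carboxykinase, for which the files list a second entry (0.67 ± 0.05, adjusted p = 7.5e-06), and FBP1, fructose 1,6-bisphosphatase (0.54 ± 0.06, adjusted p = 6.2e-05), which opposes phosphofructokinase. FBP1 rose from 9.33 to 13.8 FPKM. Of 10 tested genes of pyruvate entry into mitochondria, 4 were higher and 2 lower, among them PDK2 (0.39 ± 0.04, adjusted p = 7.5e-05), a kinase of the same family as PDK1, and PC, pyruvate carboxylase (-0.32 ± 0.06, adjusted p = 0.0014). In the pentose phosphate pathway 4 of 7 were lower and 1 higher. PGLS, the lactonase of that pathway, rose from 25.8 to 31.8 FPKM (0.29 ± 0.03, adjusted p = 4.9e-05).

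In glycogen metabolism 2 of 5 were lower and 1 higher in H3255, with GBE1, the branching enzyme, at -0.32 ± 0.04 (adjusted p = 0.00034), PYGL, a phosphorylase, at -0.13 ± 0.04 (adjusted p = 0.018) and PYGB, its brain form, at 0.12 ± 0.03 (adjusted p = 0.011). Of 6 other isozymes and carriers tested, 2 were called, both higher. They were SLC2A10, a further GLUT gene (0.30 ± 0.06, adjusted p = 0.0048), and EMB, an accessory protein of monocarboxylate transporters (0.26 ± 0.03, adjusted p = 0.00027). In H1975, 8 of 33 were called, 3 lower and 5 higher, beside 11.1% and 8.88% of all genes. They included PDK2 (0.34 ± 0.05, adjusted p = 0.0018), SLC2A12 (0.32 ± 0.07, adjusted p = 0.0097), RPIA (-0.29 ± 0.06, adjusted p = 0.012), PDK4 (0.27 ± 0.07, adjusted p = 0.027), PGLS (0.20 ± 0.05, adjusted p = 0.027), DLAT, a subunit of pyruvate dehydrogenase (-0.15 ± 0.03, adjusted p = 0.0068), and GBE1 (-0.12 ± 0.04, adjusted p = 0.041). PDK2 and PGLS rose and GBE1 fell in both L858R lines, whereas TKT, a transketolase, fell in H3255 (-0.23 ± 0.05, adjusted p = 0.0033) and rose in H1975 (0.15 ± 0.03, adjusted p = 0.011). Without C36 replicate 2 the H1975 count was 5, and without a filter on low genes it was 4.

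In H820 limma called 0 of 33 of the other pathway genes between MinE07 and C36, with 6 at an unadjusted p under 0.05 (10.2% of all genes), and in A549 0 of 31, with 4 (10.8%). The fit of all 36 libraries called 2 in A549, both higher. With C36 against vehicle, A549 had 3 of 31 called lower beside 2.38% of all genes, namely PYGL (-0.22 ± 0.03, adjusted p = 0.0091), GBE1 (-0.20 ± 0.04, adjusted p = 0.032) and MPC2, a subunit of the mitochondrial pyruvate carrier (-0.17 ± 0.03, adjusted p = 0.019). That count was 1 without any one C36 library or vehicle replicate 3, and 5 without vehicle replicate 1. The fit of all 36 libraries gave 6.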

How the data were processed

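Values are FPKM per gene, deposited by the authors as 1 file per library from poly-A RNA read as pairs of 100 bases on a stranded kit, per the labels. The submitters' processing notes name HISAT2, Cuffdiff, GRCh38.p12 and hg38, without versions or roles. Each file lists 68271 entries in its own order, and entries were joined by name. Left out were 1874 unnamed entries and 31 entries that share 15 repeated names. No counts are given, so absolute depth is unknown and no counting interval could be computed. log2(FPKM + 0.5) was fitted with limma 3.58.1 (R 4.3.3, trend and robust moderation) over all genes with a mean of at least 1 FPKM, per line (9 libraries) or over 36 libraries. Calls had a two-sided Benjamini-Hochberg adjusted p under 0.05 over all genes tested. A pseudocount understates changes of low genes. The scripts were tested on simulated data. Members and gene lists were chosen with earlier results of these data known. Genes given with every library's value were the called members with the largest changes, at most 5 lower against C36 and 3 against vehicle per line. A result that this rule would name among the other pathway genes is not reported here. LDHB, TKT, DLAT, PYGB, and members that were not called but lead elsewhere, were added after their values were seen. Alternatives were other pseudocounts, no filter, medians-of-ratios scaling, a replicate block, 1 fit, summed copies and libraries left out. Summing copies and dropping H820 MinE07 replicates 1 and 2 together were chosen after seeing the data.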

Additional observations from a re-analysis of the deposited data

Results flagged for a closer look

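For the members listed here, lines differed in how far MinE07 stood from C36, by an interaction term in limma over 36 libraries (adjusted p under 0.05). For both L858R lines averaged, less the average of H820 and A549, the differences on the log2 scale were SLC2A3 (-0.74), LDHA (-0.53), PGK1 (-0.44), PFKFB4 (-0.41), PDK1 (-0.41), PFKP (-0.35), ENO2 (-0.34), PGAM1 (-0.32), HK2 (-0.31), ALDOA (-0.30), PKM (-0.30), ENO1 (-0.29), SLC16A3 (-0.27), GPI (-0.25), SLC2A1 (-0.24), TPI1 (-0.24), GAPDH (-0.22), PDK3 (-0.17), PFKFB3 (-0.16), PGM1 (-0.14), HK1 (-0.12) and PDHA1 (-0.069). For H3255 minus H1975 they were SLC2A3 (-1.29), LDHA (-0.78), PDK1 (-0.50), ALDOA (-0.47), PKM (-0.46), PGK1 (-0.45), PGAM1 (-0.35), PFKP (-0.34), PDK3 (-0.33), SLC2A1 (-0.33), GAPDH (-0.30), ALDOC (-0.29), GPI (-0.27), ENO1 (-0.26), TPI1 (-0.25), HK2 (-0.20) and PGM1 (-0.16). Within H1975 alone, SLC2A3, SLC2A1, GPI, ALDOA, TPI1, GAPDH, PKM, PDK1, PDK3, PGM1 and PDHA1 were not called between MinE07 and C36. PDK3 was at 0.09 in H1975 and at -0.24 in H3255, and PDHA1 was not called in H3255 either. SLC2A3 in H820 and HK2 in A549 were under 1 FPKM and entered this fit through the other lines, so the pseudocount holds their change there near 0. Of the 22 and 17 calls, 20 and 14 were made under every alternative. PDHA1 and PDK3 in the first comparison, and ALDOC, HK2 and PGM1 in the second, lost theirs under at least 1, including single libraries left out. Their causes were not tested.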

How the results depend on the processing

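No called change between treatments and no called interaction term reversed its sign under any alternative run. Between H1975 and A549 in vehicle the balance of member calls did turn, from 17 higher and 13 lower to 14 and 18 with medians of ratios. The member counts between MinE07 and C36, those with MinE07 against vehicle in H3255 and H1975, the line pairs and both interaction terms stayed within 1.5 times. The smaller counts moved. For C36 against vehicle in H3255 (0 called) medians of ratios gave 3, summed copies 1 and the fit of 36 libraries 8. For C36 in H1975 (1) no filter, medians of ratios and the replicate block each gave 0, and leaving out libraries gave 0 to 2. For MinE07 against vehicle in H820 (3) no filter gave 0, leaving out single libraries 0 to 2, and leaving out MinE07 replicates 1 and 2 together 1. For C36 in H820 (1) no filter and the replicate block gave 0, summed copies 2, the fit of 36 libraries 3 (2 lower, 1 higher), and leaving out libraries 0 to 1. For MinE07 against vehicle in A549 (1) a pseudocount of 0.1 gave 2, no filter 0, medians of ratios 2, the replicate block 0, the fit of 36 libraries 7, and leaving out libraries 0 to 4. For C36 in A549 (7) no filter gave 1, the replicate block 3, the fit of 36 libraries 12, and leaving out libraries 1 to 7. The cause was not tested. Libraries with the same replicate number share only that number. Their deviations correlated over 0.1 in 3 of 9 pairs for H3255, 1 for H1975, 4 for H820 and 0 for A549. In the same order, 5, 1, 5 and 1 of 9 libraries correlated best with their own number. Relative depth spanned 0.590 to 1.39, and absolute depth is unknown.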
